A study of Danio rerio with 6 samples.

Results

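The genes described here are the enzymes of glycolysis, the glucose transporter family and the enzymes that pass pyruvate on to the mitochondrion, measured in tails of zebrafish embryos with and without a heartbeat. They were chosen by name, with earlier results of these data known. They are the entries of the deposited table whose gene symbol is that of a hexokinase, a later glycolytic enzyme, a lactate dehydrogenase, a pyruvate dehydrogenase subunit, a pyruvate dehydrogenase kinase, a PFKFB enzyme or a member of the slc2a family. The names matched 65 of 25745 genes. Of these, 63 belong to the pathway, and the other two, pkmyt1 (a kinase of the cell cycle) and slc2a4rg (a regulator of transcription), matched by their letters and are kept out of the counts by step. RNA was measured by sequencing of poly(A) RNA from tails at 28 hours after fertilisation, with 3 libraries from wild types (WT) and 3 from sih mutants. Both genotypes are of strain AB and, per the labels, were raised in normal conditions. sih, or silent heart, is a mutation of the cardiac troponin gene tnnt2a, and the heart of these embryos does not contract. The labels do not say how many tails went into a library or whether libraries came from separate clutches, so p-values measure the spread between these libraries, which may be technical.

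Glycolysis splits glucose into pyruvate in the cytosol and gains a little ATP without oxygen. Transporters of the slc2a family let glucose and related sugars across the membrane, hexokinase traps glucose as a phosphate, and phosphofructokinase commits it to breakdown. Pyruvate is then either reduced to lactate by lactate dehydrogenase or taken into the mitochondrion and oxidised by pyruvate dehydrogenase, which the pyruvate dehydrogenase kinases (PDK) switch off. Embryonic fast muscle is rich in particular copies of these enzymes, and transcription factors of the hypoxia response are known to raise several of them. Teleost fish carry many of the genes as pairs of copies, marked a and b.

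The libraries held between 21240839 and 27222955 reads assigned to genes. Levels are the authors' normalised read counts, in which 1 read was worth 0.826 to 1.43, so that genes with few reads have coarse values. They are not divided by transcript length, so levels of different genes are not compared. Libraries of the same replicate number deviated together (correlations of 0.852 to 0.932), and changes are therefore log2(sih) minus log2(WT) of value + 1, with their standard error, taken from a limma model in which the shared replicate number is a block, called the paired fit below. A gene is called where its p adjusted by Benjamini-Hochberg over all 22813 tested genes is below 0.05. Without the block, limma called 0 genes (0%), with 235 of all tested genes and 0 of the 63 tested members at an unadjusted p under 0.05. The smallest unadjusted p of a member there was 0.134. On the recovered reads without the block, edgeR's quasi-likelihood test called 0 genes and DESeq2 called 48, none of them a member. The mutated gene, tnnt2a, is a heart gene at 0, 7.43 and 3.93 normalised counts in WT replicates 1, 2 and 3 and 0, 0 and 4.3 in the sih replicates, so it does not check the genotypes. The 6 heart markers together summed to 9.17 to 13.8 in WT and 2.27 to 10.0 in sih, against 2846748 to 5324989 for 20 skeletal muscle markers.

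Changes of the pathway in sih tails were small. In the paired fit 4 members rose, the glyceraldehyde phosphate dehydrogenase gene gapdh, the enolases eno1a and eno3, and pdhx, a subunit of the pyruvate dehydrogenase complex. Their levels were 1.20 to 1.28 times those of WT. No member fell. The 4 were 6.35% of the 63 members tested, and 2.77% of all tested genes rose. For falls the share of all tested genes was 2.07%. Members that did not pass included all glucose transporters, hexokinases, phosphofructokinases, aldolases, lactate dehydrogenases and PDKs in the list. The median change of the members was 0.06, against -0.00 over all tested genes, and it was 0.13, 0.08 and 0.06 in pairs 1, 2 and 3. In 19 of the 63 the sih value was the higher in every pair (20.2% of all tested genes were), and in 11 it was the lower in every pair (18.2% of all tested genes). WT and sih libraries did not overlap in 2 members, pdha1b and slc2a11l, which had 25 and 5 reads in all 6 libraries together, while 4.22% of all tested genes did not overlap.

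**Figure D1:**
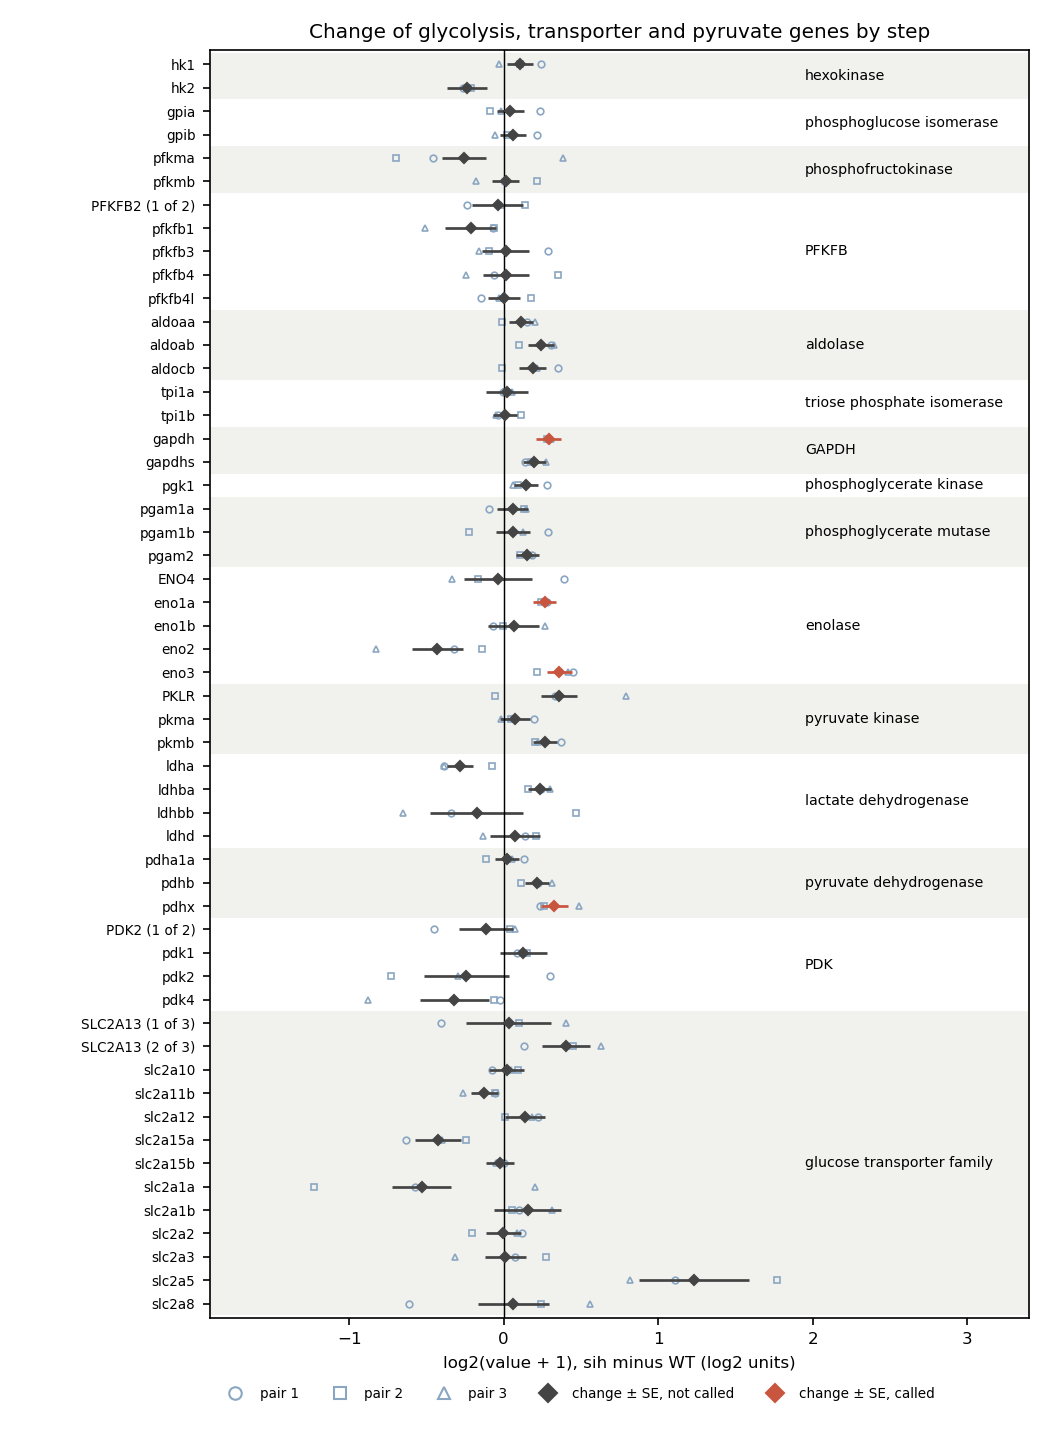
Log2 change of sih against WT for the pathway genes with more than 60 reads, 1 of which is not shown, in the order of the steps. Diamonds are the paired fit with its standard error and open symbols are the 3 pairs of libraries; the 4 called genes, in red, are gapdh, eno1a, eno3 and pdhx, and lie between 0.27 and 0.36.

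Entry of glucose into the cell and its first phosphorylation showed no called change. The glucose transporter family had 16 entries. slc2a9l1 had no read in any library, and the remaining 15 were tested with none called. The entry with the most reads was slc2a11b (ENSDARG00000063288), at 1338, 1573 and 1774 normalised counts in WT replicates 1, 2 and 3 and 1288, 1511 and 1481 in sih. The genotypes overlapped, with a change of -0.12 ± 0.09 (adjusted p = 0.478). slc2a15b, whose medaka counterpart is needed by pigment cells, was at 902 to 1097 in WT and 902 to 1062 in sih. Both lay within the spread of the libraries.

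The copies of the GLUT1 gene, the widely used basal glucose transporter, were likewise not called. slc2a1a (ENSDARG00000001437) was at 299, 194 and 183 normalised counts in WT and 201, 82.4 and 211 in sih. The sih library was lower in pairs 1 and 2 and higher in pair 3, the change was -0.53 ± 0.19, and it did not pass (adjusted p = 0.126). Without pair 3 it was -0.90 with an adjusted p of 0.0002046, and over 13 alternatives the adjusted p ranged from that value to 0.685. slc2a1b (ENSDARG00000007412) was at 210.0, 23.1 and 27.5 in WT and 225, 24.1 and 34.4 in sih. It differed by replicate number and hardly by genotype, with a change of 0.15 ± 0.22. The gene of the hepatic transporter slc2a2 was among the steadiest, at 408 to 449 normalised counts in WT and 389 to 454 in sih.

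slc2a5, which in mammals encodes a fructose transporter, had the largest change of the family and few reads (109 in all). Its values were 3.67, 7.43 and 25.6 normalised counts in WT and 9.08, 27.8 and 45.8 in sih. sih was the higher in each pair, by 1.11, 1.77 and 0.82 on the log2 scale, yet the genotypes overlapped and the change of 1.23 ± 0.36 missed the threshold (adjusted p = 0.0532). It passed without pair 1, with the gene filter computed again (adjusted p = 0.02958), and by edgeR's quasi-likelihood test with the block (adjusted p = 0.01503). In no other alternative did it pass, scaling by library totals included (1.07, adjusted p = 0.07316). slc2a15a was lower in sih in each pair (-0.63, -0.24 and -0.40) and also did not pass (-0.42 ± 0.15, adjusted p = 0.119). The other tested members of the family with more than 60 reads had changes between -0.02 and 0.40. Summed over the family, sih was at 4356 to 4505 normalised counts and WT at 4568 to 4670, and the log2 ratio of the sums was -0.07, -0.03 and -0.05 in pairs 1, 2 and 3. Of each sum slc2a11b alone held 29.3% to 38.0%, and no test was run on the sums.

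hk1 (ENSDARG00000039452), a hexokinase found in most tissues, was at 2326, 1537 and 1922 normalised counts in WT and 2753, 1653 and 1881 in sih. hk2 (ENSDARG00000026964), the hexokinase of mammalian muscle, was at 160.5, 237 and 369 in WT and 134, 205 and 312 in sih. Its sih value was the lower in each pair, by 0.26, 0.21 and 0.24 on the log2 scale, and the change of -0.24 ± 0.13 did not pass (adjusted p = 0.345). The phosphoglucose isomerase genes did not pass. gpia was at 2712, 1749.6 and 2655 in WT and 3196, 1646 and 2624 in sih (0.04 ± 0.09), and gpib at 2464, 1941 and 2583 in WT and 2858, 1975 and 2481 in sih (0.06 ± 0.08).

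Phosphofructokinase, the committing step, was measured here through the muscle-type copies. pfkmb (ENSDARG00000060797) was at 3465, 1382 and 2281 normalised counts in WT and 3477, 1608 and 2013 in sih, a change of 0.01 ± 0.09. pfkma (ENSDARG00000014179) was at 1254, 803 and 891 in WT and 912, 495 and 1166 in sih. Its direction differed between pairs, with -0.46 and -0.70 in pairs 1 and 2 and 0.39 in pair 3, and its change of -0.26 ± 0.14 did not pass (adjusted p = 0.346). Without pair 3 it was -0.58 and passed (adjusted p = 0.001569, and between that and 0.936 over the alternatives). Liver-type and platelet-type copies carry names with a suffix that the name rule did not take. Among those 4 entries, named after their values were seen, PFKL (2 of 2) rose from 906, 196 and 434 in WT to 1123, 237 and 675 in sih (0.41 ± 0.11, adjusted p = 0.038). The call was lost without pair 3 (0.29, adjusted p = 0.3723) and with scaling by library totals (0.22, adjusted p = 0.2177). That scaling lowered the median of all genes too, and without pair 3 fewer genes were called over the whole table. PFKL (1 of 2) was at -0.42 ± 0.16 (adjusted p = 0.163). PFKP (1 of 2), with 8015 reads in all, was at 0.06 ± 0.09 and PFKP (2 of 2) at -0.18 ± 0.26, and neither was called.

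The PFKFB enzymes make and remove fructose bisphosphate that activates phosphofructokinase. Of 7 entries 6 were tested and none was called. PFKFB1 (1 of 2) had 2 reads and was not tested. pfkfb4l, with the most reads, was at 629, 478 and 653 normalised counts in WT and 569, 541 and 639 in sih, a change of 0.00 ± 0.10. pfkfb1 had the largest change of those with a mean of at least 50, at -0.21 ± 0.16 (adjusted p = 0.528). pfkfb3, which is induced by low oxygen in mammalian cells, was at 139 to 158 in WT and 142 to 170.2 in sih (0.01 ± 0.15).

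The middle of the pathway, from aldolase to enolase, held 3 of the 4 genes that rose. The aldolases aldoaa, aldoab and aldocb had positive changes, and none of them passed. With scaling by library totals, which lowered the median of all genes as well, the change of aldoaa was -0.07. aldoab (ENSDARG00000034470), an aldolase A copy, was at 55288, 56598 and 71876 normalised counts in WT and 68428, 60605 and 89953 in sih. sih was the higher in each pair while the genotypes overlapped, and the change was 0.24 ± 0.08 (adjusted p = 0.102). aldoaa and aldocb were at 0.11 ± 0.08 and 0.19 ± 0.09, and aldoca had 5 reads. Triose phosphate isomerase was level, with tpi1b at 7188, 7707 and 8352 in WT and 7009.7, 8332 and 8067 in sih (0.01 ± 0.08), and tpi1a at 0.02 ± 0.14.

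gapdh (ENSDARG00000043457), the enzyme that makes the NADH of glycolysis, was at 51821, 58456 and 81480.2 normalised counts in WT and 63222, 71089 and 100922 in sih. The sih library was the higher in every pair by nearly the same amount, 0.29, 0.28 and 0.31 on the log2 scale, although the genotypes overlapped because replicate 3 was high in both. The paired change was 0.29 ± 0.08, a 1.22-fold rise (adjusted p = 0.0397 by limma). gapdhs, the second copy of the enzyme, was also higher in each pair and did not pass (0.20 ± 0.08, adjusted p = 0.15). pgk1, which makes the first ATP of the pathway, was at 6806, 5795 and 8467 in WT and 8266, 6174 and 8829 in sih (0.14 ± 0.08, adjusted p = 0.332). The 3 phosphoglycerate mutases were at 0.06 to 0.15. With scaling by library totals, which lowered the median of all genes as well, they were at -0.12 to -0.03. pgam2, the muscle form, had the largest of these changes, from 5539, 6690.3 and 7581 in WT to 6283, 7214 and 8538 in sih (0.15 ± 0.07, adjusted p = 0.271).

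Enolase makes phosphoenolpyruvate and is encoded by separate genes for different tissues. eno3 (ENSDARG00000039007), the muscle enolase, was at 11907, 21512 and 39160.3 normalised counts in WT and 16263, 24952 and 52379 in sih. It was the higher in sih by 0.45, 0.21 and 0.42 in pairs 1, 2 and 3, and its change of 0.36 ± 0.08 (adjusted p = 0.0118) was the largest of the called members. The difference between replicate numbers was far larger than that, and the genotypes overlapped. eno1a (ENSDARG00000022456), the enolase of most tissues, was at 10959, 9153 and 12432 in WT and 13288, 10844 and 15017 in sih. Its rise was even across pairs (0.28, 0.24 and 0.27), with a change of 0.27 ± 0.07 (adjusted p = 0.0424). eno2, the enolase of neurons in mammals, was at 234, 137 and 150.4 in WT and 187, 124 and 84.5 in sih. It was the lower in sih in each pair and did not pass (-0.43 ± 0.16, adjusted p = 0.148). Its relatives eno1b and ENO4 were at 0.07 ± 0.17 and -0.04 ± 0.22.

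**Figure D2:**
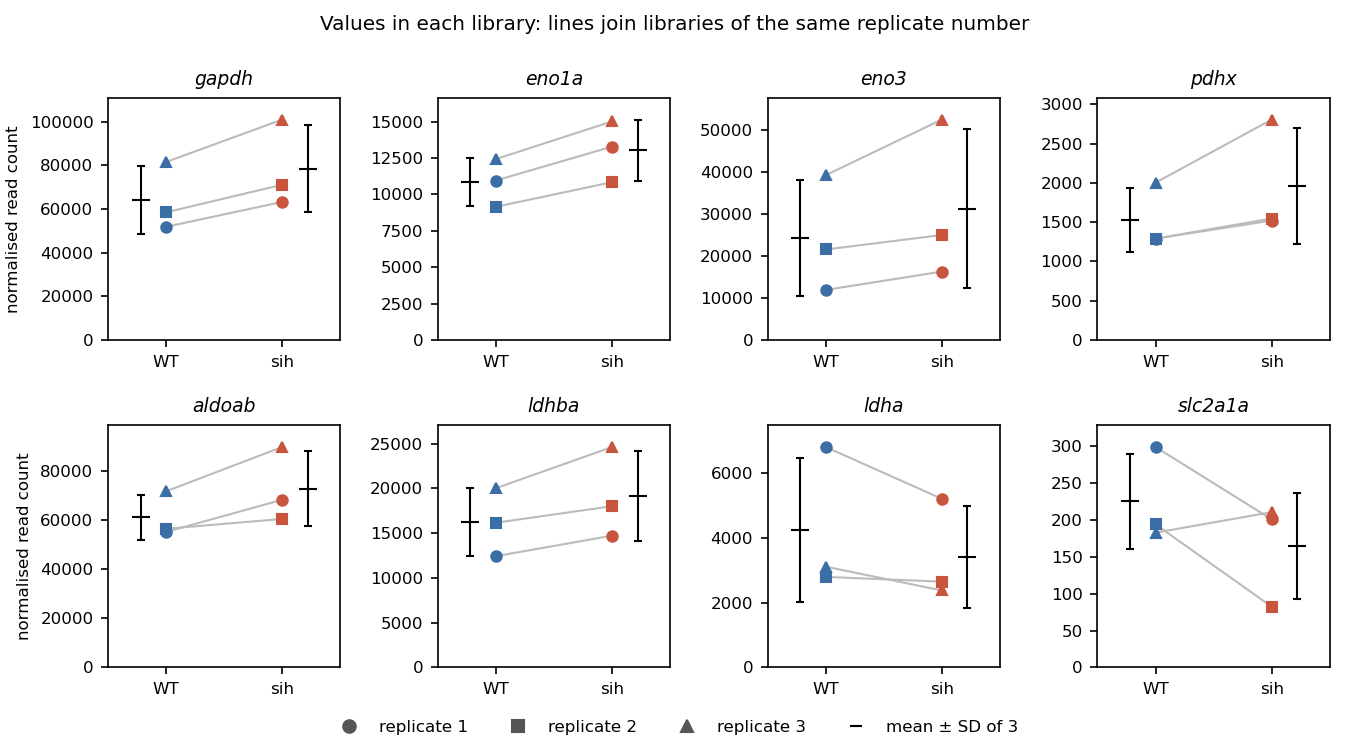
Normalised read counts (y axes from 0) of 8 genes in each library, WT in blue and sih in red, with lines joining libraries of the same replicate number and black bars for the mean ± SD of 3. The lines of gapdh, eno1a, eno3, pdhx, aldoab and ldhba run upwards in every pair and those of ldha downwards, while slc2a1a falls in pairs 1 and 2 and rises in pair 3.

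Pyruvate kinase makes pyruvate and ATP. pkmb (ENSDARG00000003191) was at 3098, 2896 and 4090.4 normalised counts in WT and 4006, 3330.1 and 4776 in sih, higher in sih in each pair. Its change of 0.27 ± 0.08 missed the threshold (adjusted p = 0.0563). pkma was at 0.07 ± 0.09. PKLR (ENSDARG00000042010), which in mammals is the pyruvate kinase of liver and red cells, was at 958, 725 and 1731 in WT and 1208, 698 and 3001 in sih. Pairs 1 and 3 were higher and pair 2 was not (0.33, -0.06 and 0.79), and the change of 0.36 ± 0.12 did not pass (adjusted p = 0.0904). It passed without pair 1 and without pair 2 (adjusted p = 0.01184 and 0.000142), and over the alternatives the adjusted p reached 0.721. In the same libraries all 12 entries of 10 erythroid markers rose, with a median change of 2.25, and their summed level was 33617 to 47742 normalised counts in WT and 156082 to 208006 in sih. The log2 ratio of the erythroid sums was 2.10, 2.63 and 2.12 in pairs 1, 2 and 3. The part of red cells in the level of PKLR was not tested.

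The lactate dehydrogenases had changes of opposite sign. ldha (ENSDARG00000040856), the form that in mammals prevails in muscle and in cells short of oxygen, was at 6816, 2801 and 3117 normalised counts in WT and 5215, 2654 and 2381 in sih. It was the lower in sih in each pair, by 0.39, 0.08 and 0.39, and its change of -0.28 ± 0.08 missed the threshold (adjusted p = 0.0558). ldhba (ENSDARG00000019644), a copy of the heart-type form, was at 12430.4, 16166 and 20019 in WT and 14722, 18011 and 24622 in sih. It was the higher in sih in each pair, by 0.24, 0.16 and 0.30, and did not pass either (0.23 ± 0.07, adjusted p = 0.0827). Over the alternatives the adjusted p of ldha ranged from 0.004219 to 0.456, and ldha was called lower in 5 of 13. The adjusted p of ldhba ranged from 0.04199 to 0.698, and ldhba was called higher in 3 of 13. The change of ldha was negative and that of ldhba positive in all 13, as in each pair, so the 13 are not separate checks of direction. The difference between the changes of the paralogs was not tested. ldhbb and ldhd, the latter an enzyme of D-lactate, were at -0.17 ± 0.30 and 0.07 ± 0.16.

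Of the pyruvate dehydrogenase complex, pdhx (ENSDARG00000051756), which holds the third enzyme of the complex in place, rose. It was at 1291, 1291 and 2003 normalised counts in WT and 1521, 1547 and 2806 in sih, higher in each pair by 0.24, 0.26 and 0.49, with a change of 0.33 ± 0.09 (adjusted p = 0.0342). The subunits of its first enzyme did not pass. pdhb was at 4409, 5650.0 and 6868 in WT and 5151, 6099.7 and 8518 in sih (0.22 ± 0.08, adjusted p = 0.117), and pdha1a at 5606, 7883 and 7115 in WT and 6135, 7282 and 7405 in sih (0.02 ± 0.08, adjusted p = 0.909). pdha1b had 25 reads. No PDK was called. pdk1, a target of the hypoxia response in mammals, was at 225, 81.7 and 115 in WT and 238, 90.8 and 127 in sih (0.13 ± 0.15). pdk4, which in mammals is raised in fasting, was at 148, 51.2 and 48.2 in WT and 145, 49.1 and 25.8 in sih (-0.32 ± 0.22, adjusted p = 0.477). For both, replicate 1 was high in each genotype. The other PDKs, pdk2, PDK2 (1 of 2) and pdk3a, had 223, 652 and 30 reads in all.

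None of the 4 rises kept its call without pair 3, where the adjusted p was 0.1481 for eno3, 0.3072 for eno1a, 0.3549 for gapdh and 0.3741 for pdhx. Fewer genes were also called over the whole table without pair 3, and their counts are in the last section. In pairs 1, 2 and 3 the log2 ratio was 0.45, 0.21 and 0.42 for eno3 and 0.24, 0.26 and 0.49 for pdhx. It was 0.28, 0.24 and 0.27 for eno1a and 0.29, 0.28 and 0.31 for gapdh, so for these 2 genes the lost call was not a lost change. gapdh and eno1a were not called without pair 2 either (adjusted p = 0.07824 and 0.08167). Over the 13 alternatives of the paired fit, eno3 was called in 9 (adjusted p from 0.0001549 to 0.399), pdhx in 7 (0.004947 to 0.403), gapdh in 5 (0.001567 to 0.41) and eno1a in 5 (0.01344 to 0.489). Their changes were positive in all 13, which are not separate checks of direction. Some alternatives left the change as it was, and each fit with a pair left out was counted under both filters. As all pairs were positive, those fits could only be positive. With scaling by library totals, the median of all genes shifted to -0.18 and no member was called higher. The changes were then 0.18 for eno3, 0.14 for pdhx, 0.11 for gapdh and 0.08 for eno1a. The same scaling called 5 members lower, namely ldha (-0.47), eno2 (-0.61), slc2a1a (-0.71), slc2a15a (-0.61) and slc2a11b (-0.31). Genes called lower over the whole table also became far more numerous with it than the 2.07% of the paired fit on the deposited normalised counts. Their count is in the last section, so these falls are not read as particular to the pathway.

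The rises of gapdh, eno1a and eno3 also sat among the abundant genes, which were shifted as a whole. Of the 316 tested genes with a mean of at least 10000 normalised counts, 88.0% had a change above 0, 38.9% were called higher and the median change was 0.23. The 7 pathway members in that range, among them aldoab, gapdh, eno1a, eno3 and ldhba, all had a change above 0, except for aldoaa with scaling by library totals, with 3 called and a median of 0.27. Between 1000 and 10000, the median change was 0.06 over 2495 genes and 0.11 over 17 members, and 9.46% of the genes and 1 member, pdhx, were called higher. From 100 to 1000 it was 0.00 over 8350 genes and 0.01 over 23 members, with no member called. ldha, at -0.28, had the lowest change of the 17 members between 1000 and 10000.

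**Figure D3:**
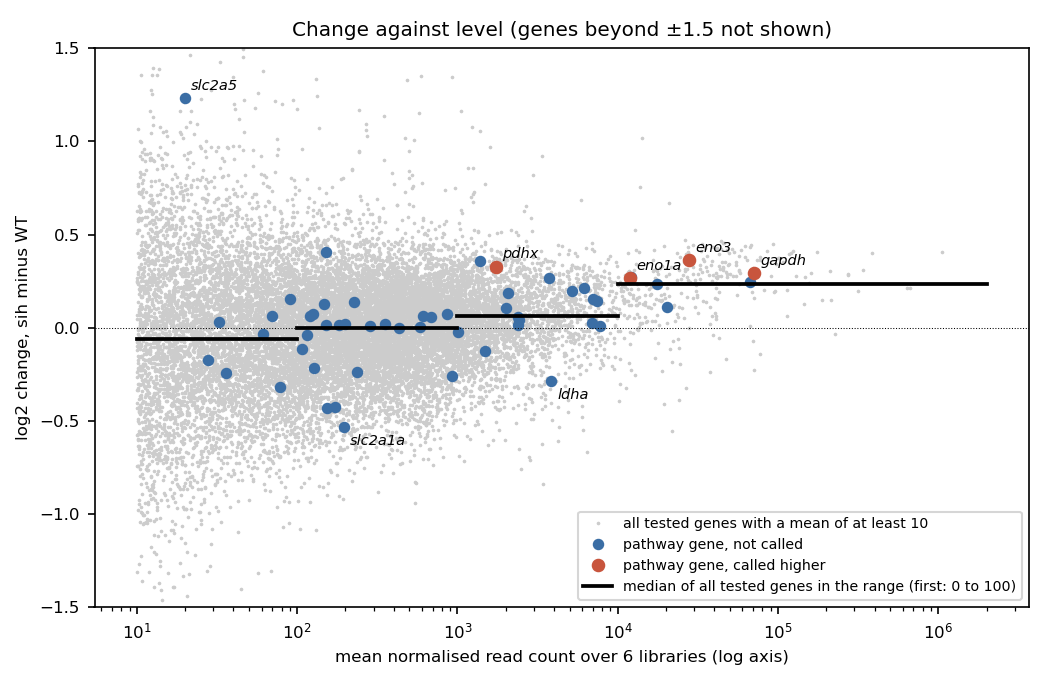
Log2 change of sih against WT (y axis) by mean normalised read count over the 6 libraries (x axis, log scale). Grey points are tested genes with a mean of at least 10, and genes with a change beyond ±1.5 are not shown. Blue and red points are pathway genes. Black lines are medians of all tested genes in 4 ranges of level, which go up to 0.23 in the highest range. In that range the red points of gapdh, eno1a and eno3 lie at 0.27 to 0.36.

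As a share of the reads, the pathway took 1.14%, 1.12% and 1.29% in WT replicates 1, 2 and 3 and 1.17%, 1.14% and 1.33% in sih. The sih share was slightly the higher in each pair and the genotypes overlapped. Aldolases, with 0.366% to 0.441% of a library, and the GAPDH genes, with 0.268% to 0.352%, held most of these reads.

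Markers of several tissues differed between the genotypes in the same libraries. Of 20 skeletal muscle markers 4 rose (actc1b, pvalb4, tcap and desma) and 0 fell, with a median change of 0.21, and their summed level was 2846748 to 4279515 normalised counts in WT and 3298858 to 5324989 in sih. Of these 20 genes 18 had a mean of at least 10000, the range in which 38.9% of all tested genes were called higher. Of 10 epidermal markers 4 rose (krt8, cyt1, cyt1l and KRT23 (5 of 15)) and evpla, an envelope protein gene, fell (median 0.25, sums of 666563 to 953398 in WT and 801813 to 1078420 in sih). Of 9 tested liver and yolk markers 6 rose and 0 fell (median 0.29, sums of 114863 to 225184 and 136457 to 283310). A mean of at least 10000 was reached by 5 of the epidermal and 4 of the liver and yolk markers. The median change of all tested genes in that range was 0.23. Without regard to level, 2.77% of all tested genes rose and 2.07% fell. Of 9 neuronal markers none was called (median 0.01), and the 3 neutrophil markers mpx, lyz and npsn all fell (sums of 863 to 1251 and 239 to 441). With scaling by library totals the medians were 0.02 for muscle, 0.06 for epidermis, 0.10 for liver and yolk and -0.17 for neurons, against -0.18 over all genes, and 1 muscle marker (tcap), 0 epidermal and 0 liver and yolk markers were called higher. None of these markers was at 0 in every library. In whole tails more cells of a type and more RNA per cell cannot be told apart, and the part of tissue makeup in the rises of gapdh, eno1a, eno3 and pdhx was not tested.

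Libraries differed by replicate number as well as by genotype, in the members as in other genes. For 57 of the 61 pathway members tested the span between the 3 replicate numbers, taken as the mean of both genotypes on the log2 scale, exceeded the size of the genotype change. The same held for 92.0% of all tested genes. The median span was 0.67 for the pathway members and 0.90 over all tested genes. What a replicate number marks is not given in the labels, and the values that follow are a description with no test.

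Both replicate 1 libraries were above the other 4 in 11 pathway members (28.0% of all tested genes), and below them in 18 (23.4% of all tested genes). slc2a1b, the second GLUT1 copy, was 7.81 times as high in replicate 1 as in replicates 2 and 3, the largest such ratio of any pathway member. pdk4 was 3.42 times as high, slc2a15a 2.67 times, pdk1 2.25 times and ldha 2.19 times. pfkmb, at 1.94 times, and the neuronal enolase eno2, at 1.72 times, were also higher there. At the other end were slc2a5, at 0.293 times the level of replicates 2 and 3, eno3 at 0.43, tpi1a at 0.451 and hk2 at 0.538. PKLR set replicate 3 apart from replicate 2, with a difference of 1.68 on the log2 scale.

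**Figure D4:**
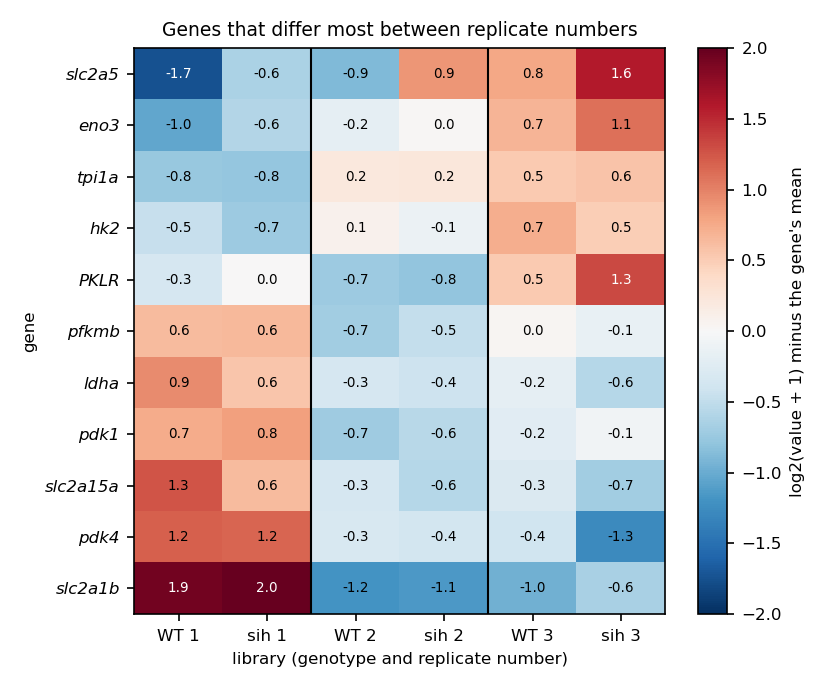
Log2(value + 1) of each library minus the mean of the gene, for the 11 pathway genes with more than 60 reads whose span between replicate numbers exceeded 1. Both replicate 1 libraries are high for pfkmb, ldha, pdk1, slc2a15a, pdk4 and slc2a1b and low for eno3, tpi1a and hk2. WT and sih of the same number are often close, but for slc2a5 sih is higher by 1.11, 1.77 and 0.82 in pairs 1, 2 and 3. In pair 3 the sih minus WT difference is 0.79 for PKLR and -0.88 for pdk4.

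Of all tested genes, 48.3% were lower in replicate 1 than in the mean of replicates 2 and 3, and the median difference was 0.04 on the log2 scale. Of 20 tested genes of the hypoxia response 5 were lower, with a median of 0.42. Of 20 skeletal muscle markers 15 were lower, with a median of -0.27. None of the 3 endothelial markers found (kdrl, cdh5 and tie1) was lower, with a median of 1.08. Neuronal markers, with 4 of 9 lower (median 0.10), and erythroid markers, with 5 of 12 lower (median 0.22), went both ways. Whether these lists bear on the pathway members was not tested.

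Neighbouring pathways changed in few of their genes. Over all tested genes the share that rose was 2.77% and the share that fell 2.07%. Fits without pair 3 called fewer genes over the whole table, and scaling by library totals lowered the median of all genes. Of 8 tested gluconeogenic genes 1 rose and 0 fell. It was pck1, which encodes the phosphoenolpyruvate carboxykinase that sends oxaloacetate back towards glucose, at 1160, 265 and 755 normalised counts in WT replicates 1, 2 and 3 and 1900.2, 487 and 1190.4 in sih. Its change of 0.75 ± 0.10 (adjusted p = 8.4e-05) exceeded that of each called glycolytic member, and it was called without each pair in turn, with the filter computed again, and with scaling by library totals (0.56). With the gene filter held at that of all 6 libraries, no gene was called without pair 1, pck1 and gpd1l included (adjusted p = 0.3944 for both). Of 15 genes of galactose, glycogen and other routes of sugar entry none was called. Of 6 pentose phosphate genes taldo1, a transaldolase, rose (0.31 ± 0.08). The call was lost without pair 3 (0.21, adjusted p = 0.4451) and with scaling by library totals (0.12, adjusted p = 0.3375).

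Among 7 entries for carriers of lactate and pyruvate 0 rose and 1 fell. This was slc16a8, of the monocarboxylate transporter family, from 1034, 2675 and 2371 normalised counts in WT to 828, 2332 and 1583 in sih (-0.37 ± 0.09, adjusted p = 0.024). The call was lost without pair 3 (-0.26, adjusted p = 0.3386). The mitochondrial pyruvate carriers MPC1 and mpc2 were at 0.22 ± 0.08 and -0.02 ± 0.08 and did not pass. Of 28 citrate cycle and related genes 3 rose and 0 fell, namely sdhb, a subunit of succinate dehydrogenase (0.32 ± 0.08), fh, fumarase (0.30 ± 0.08), and PDPR, the regulatory subunit of the phosphatase that switches pyruvate dehydrogenase on (0.36 ± 0.09). These 3 were not called without pair 3 (changes of 0.23 to 0.27, adjusted p from 0.2686 to 0.3831) or with scaling by library totals. The median level of the 28 genes was 2682 normalised counts. Between 1000 and 10000 normalised counts 9.46% of all tested genes were called higher. Of 15 shuttle and branch genes phgdh, the entry to serine synthesis, rose (0.31 ± 0.08), and gpd1l, a glycerol phosphate dehydrogenase, fell from 557, 869 and 556 to 394, 569.7 and 288 (-0.69 ± 0.11, adjusted p = 0.00127). phgdh was not called without pair 3 (0.25, adjusted p = 0.3164) or with scaling by library totals (0.12, adjusted p = 0.3005). By contrast, gpd1l was called without each pair in turn, with the filter computed again each time.

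The hypoxia response, which includes regulators and targets known outside glycolysis, had 3 genes that rose and 2 that fell of 20 tested. Of the 25 symbols listed for it, 5 were not found. The median change was 0.05. Over all tested genes 2.77% rose and 2.07% fell. The genes that rose were igfbp1a (0.95 ± 0.14) and igfbp1b (1.67 ± 0.24), which encode binding proteins of insulin-like growth factors, and bnip3lb (0.42 ± 0.11), a mitophagy receptor gene. The call of bnip3lb was lost without pair 1 (0.28, adjusted p = 0.1862) and with scaling by library totals (0.23, adjusted p = 0.2174). Those that fell were epas1a (-0.43 ± 0.09), a HIF2 alpha subunit, and ca9 (-1.10 ± 0.28), a carbonic anhydrase. The call of ca9 was lost without pair 2 (-0.70, adjusted p = 0.1935). hif1ab, a HIF1 alpha subunit, was at 3560.3, 2200 and 2723 normalised counts in WT and 4128, 1856 and 2626 in sih (-0.03 ± 0.09). hif1al2, a HIF gene by its symbol, was outside the list and was named after its value was seen. Its change was 1.26, at a mean of 57.2 normalised counts over all libraries, and it is not part of the counts above. Its standard error and adjusted p are not given here. egln3, an oxygen sensor that HIF itself induces, was at 55.9, 51.2 and 48.2 in WT and 139.5, 44.5 and 61.6 in sih (0.48 ± 0.25, adjusted p = 0.315).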

How the data were processed

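Poly(A) RNA of 3 WT and 3 sih tail samples was sequenced. The authors deposited normalised read counts, a signal scale of gene counts divided by 1 factor per library: dividing by the worth of 1 read gave whole numbers for 100% of values (tolerance 1e-06). Build Zv9, TopHat, HTSeq 0.5.3p5 and edgeR 3.0.8 are named in the submitters' processing notes. For annotation, strand setting and the handling of reads shared by gene copies, nothing is given in the sources used here, so levels of close paralogs are uncertain. Symbols are those of the deposited table.

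A gene was tested if its mean reached 1 in WT or in sih. The test across all genes used limma 3.58.1 (R 4.3.3; trend, log2(value + 1), two-sided, Benjamini-Hochberg, threshold 0.05), unblocked as planned and with the replicate number as a block. Same-numbered libraries correlated at 0.932, 0.884 and 0.852 over genes with a mean of at least 50, which is where the pairing comes from. edgeR 4.0.16 and DESeq2 1.42.0 were run on the whole reads. The limma step was also run on simulated data. The spread between replicate numbers there was set beforehand and not matched to these libraries, so no conclusion is drawn from it. Named members are those called and, per step, the one with the highest mean and the one with the largest change where the WT or the sih mean reached 50. Others named were chosen after their values were seen. Members and lists were chosen with earlier results of these data known. The values of 1 member are not reported here.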

Additional observations from a re-analysis of the deposited data

How the results depend on the processing

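Without the replicate block 0 genes and 0 members were called in either direction, also with each of the 6 libraries left out. With the replicate block 632 genes were higher and 473 lower, and 4 members were higher. Unblocked DESeq2 called 46 genes higher and 2 lower. In the paired fit, a pseudocount of 0.1 gave 266 genes higher and 144 lower with 1 member higher. No filter on low values left 2 members higher. A filter of 1 CPM in 3 libraries gave 8 members higher and 1 lower. Scaling by library totals gave 181 genes higher and 2057 lower of the 22813 tested. Of the 63 members tested it gave 0 higher and 5 lower, and it moved their median change to -0.12 (all genes -0.18). edgeR's quasi-likelihood test gave 1004 genes higher and 795 lower with 10 members higher and 2 lower, and DESeq2 gave 8 members higher and 1 lower. For the fit without a filter, the CPM filter and DESeq2 only members are counted here. Those counts therefore cannot be set against the share of all genes called. The choice of filter also changed which genes were tested. With a pair left out, genes called ranged from 0 to 744 higher and from 0 to 761 lower, and members from 0 to 6 higher and from 0 to 2 lower. Without pair 3 it was 256 genes higher and 250 lower, with 1 member higher (slc2a4rg) and 2 lower (pfkma and slc2a1a). These ranges include an alternative chosen after seeing the data, which kept the genes tested with all libraries. There no gene was called without pair 1, against 744 higher and 504 lower with the filter computed again. It gave 220 higher and 284 lower without pair 2, and 159 higher and 85 lower without pair 3. The cause was not tested. For the 28 members named by the rule, 309 of the results under the alternatives kept their side of the threshold, 26 lost a call, 29 gained one and none that was called reversed. The depth limits genes with few reads, and 9 members had at most 60 reads in all 6 libraries together.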
